A study of Mus musculus with 16 samples.

Results

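The genes described are 10 that a macrophage uses to break down heme and to store, recycle and move iron: Hmox1, Blvra and Blvrb (heme breakdown), Fth1, Ftl1 and Ncoa4 (storage), and Slc40a1, Slc11a1, Slc11a2 and Tfrc (transport). They were chosen by symbol, and all 10 were found among the 45664 gene entries of the deposited count table and had enough counts to be tested. RNA of 4 sorted mouse populations was sequenced, with 4 libraries each. All mice were C57BL/6, aged 8 to 10 weeks. The sort gate was CD45+CD11b+CD64+F4/80+ for macrophages of the cornea and CD45+CD11b+ for microglia, taken from either retina or brain. The gate for monocytes of the bone marrow was CD45+CD11b+CD115+Ly6C+. No treatment is labelled. Each cornea and retina sample pooled 10 mice. The pool size of the brain and marrow samples is uncertain, because their descriptions name retinal microglia, and they were grouped by source name. Corneas were digested with collagenase D at 37 °C and retinas were dissociated mechanically in cold buffer, so population and dissociation cannot be told apart. In sorted bulk RNA, fewer cells of a type and less RNA per cell cannot be told apart either.

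Macrophages that clear red cells take up large amounts of heme. Heme oxygenase 1, the product of Hmox1, opens the heme ring and frees iron, carbon monoxide and biliverdin. In adult tissue biliverdin is turned into bilirubin mainly by the reductase of Blvra, while Blvrb encodes the other biliverdin reductase. Freed iron is stored in the shell of ferritin, built of heavy (Fth1) and light (Ftl1) chains, is returned from it by ferritinophagy through the cargo receptor NCOA4, or leaves the cell through ferroportin (Slc40a1), the only known iron exporter of mammals. NRAMP1 (Slc11a1) moves metal ions out of phagosomes, DMT1 (Slc11a2) moves iron out of endosomes, and the transferrin receptor (Tfrc) brings in iron bound to transferrin. Microglia are the resident macrophages of brain and retina.

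Several of these messages are controlled after transcription through the iron-responsive element, a hairpin with a loop of CAGTGN that iron regulatory proteins bind in cells short of iron. In a 5′ UTR it blocks translation, and in the 3′ UTR of Tfrc it protects the message from decay, so a transcript level is not a protein level for the ferritin chains and ferroportin. The elements are shown because they sort the genes that hold a match into such classes. They were searched for in the GENCODE transcripts of build GRCm38 as a C, 5 bases, CAGTGN (the last base not G) and 5 bases that pair with the first 5, counting G with T as a pair. Each printed window has 30 bases, with the loop in capitals. Those of Fth1 (chr19:9982732-9982761, plus strand), Ftl1 (chr7:45459778-45459807, minus strand) and Slc40a1 (chr1:45925464-45925493, minus strand) lay in the 5′ UTR, and those of Tfrc lay in the 3′ UTR on the plus strand of chromosome 16.
Fth1: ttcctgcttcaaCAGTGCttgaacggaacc
Ftl1: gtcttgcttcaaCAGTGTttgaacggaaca
Slc40a1: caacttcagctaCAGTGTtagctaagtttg
Tfrc, chr16:32631219-32631248: aattatcggaagCAGTGCcttccataatta
Tfrc, chr16:32631598-32631627: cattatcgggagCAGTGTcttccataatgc
Tfrc, chr16:32631663-32631692: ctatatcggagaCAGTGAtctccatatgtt
Tfrc, chr16:32631710-32631739: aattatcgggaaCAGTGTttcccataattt

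The windows of the ferritin chains were identical at 26 of 30 bases, against 13 of 30 between Fth1 and Slc40a1. By the same rule, 222 of 21901 protein-coding genes (1.01%) had at least 1 match anywhere in a transcript. No match by this rule was found in the other 6 members, which says only that no loop with such a fully paired stem was in the transcripts searched. An element whose stem departs from the rule would be missed. In the RefSeq promoter windows of build GRCm38.p6 (250 bases before to 50 after a start), 7 members had 12 windows, and Hmox1, Slc40a1 and Slc11a2 had none. The antioxidant response element core TGANNNNGC, searched on both strands, was in 6 of the 12 windows and in 41.3% of all 32851 windows. A match of these letters is a description of the window and not a binding site.

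Libraries held 8677418 to 21756558 counts, and 15754 genes were tested. Levels are CPM, counts scaled by the TMM-corrected library size, and differences are log2 fold changes of edgeR's quasi-likelihood fit over all 16 libraries. Adjusted p-values are Benjamini-Hochberg values over all tested genes, and a gene is called higher or lower at an adjusted p under 0.05. TMM factors were 0.661 to 0.705 in cornea and 1.07 to 1.25 elsewhere. With total counts in place of TMM, the median log2 fold change of all genes moved from -0.12 to -0.92 between cornea and retina and from about 0 to -0.67 between cornea and brain or marrow, so cornea differences under about 1 on the log2 scale depend on the scaling. The marker genes of the sorted cells were present: microglial markers summed to 20795 to 38518 CPM in microglia and monocyte markers to 15403 to 22320.0 CPM in monocytes. Tissue macrophage markers summed to 19094 to 27789 CPM in cornea, where microglial markers had 1667 to 1906 CPM and monocyte markers 535 to 1071 CPM. Transcripts of other cells were found in retina (photoreceptor markers, 775 to 7416 CPM) and marrow (granulocyte markers, 745 to 4589.8 CPM). In cornea, keratocyte markers summed to 1388 to 2586 CPM and corneal epithelial markers to 232 to 1416 CPM, and their part in the levels was not tested. Titles of cornea library 1 and retina libraries 1 and 3 lack a letter that the other titles carry, and each shares its title number with another library of its population. The labels do not say that such libraries came from separate animals, so n = 4 may overstate the separate samples and p-values measure only the spread between libraries.

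**Figure D1:**
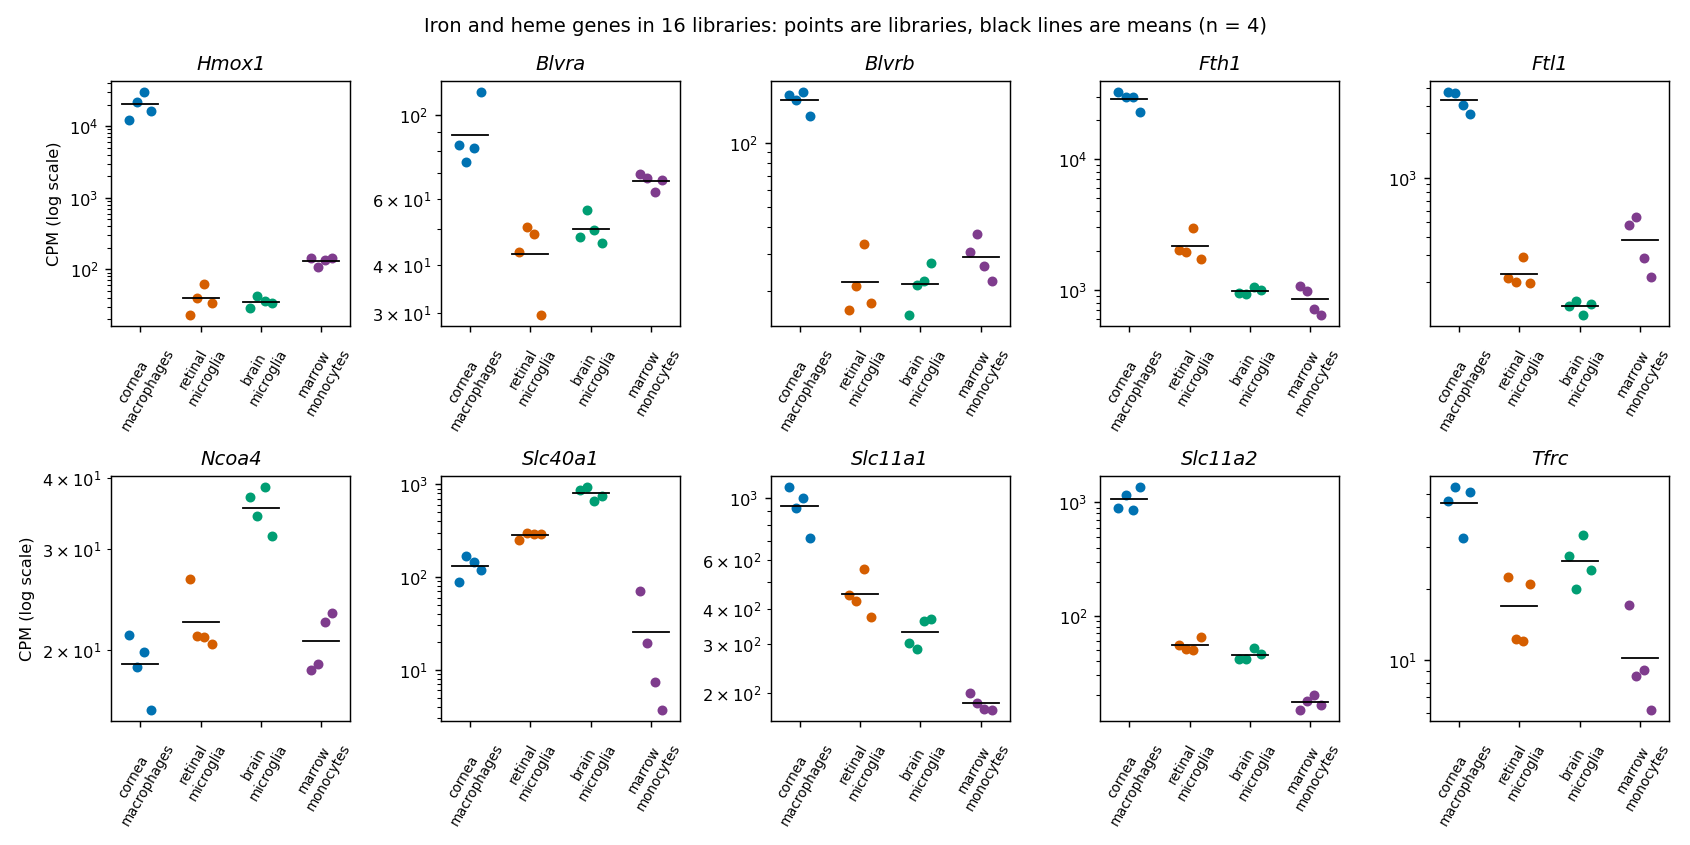
CPM (log scale, a range of its own in each panel) of the 10 genes in 16 libraries; points are libraries and black lines are means (n = 4). The 4 cornea libraries lie above all others for Hmox1, Blvra, Blvrb, Fth1, Ftl1, Slc11a1 and Slc11a2, and the brain libraries lie highest for Slc40a1.

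Hmox1 was the gene with the widest spread of levels in the set. Its level was 12249.7, 22108, 29923 and 16519 CPM in the 4 cornea libraries, which is 0.859% to 2.11% of all their counts. It was 142, 107, 133 and 142 CPM in marrow monocytes, 23.2, 39.6, 63.1 and 33.7 CPM in retinal microglia, and 28.4, 42.1, 36.3 and 33.7 CPM in brain microglia. The cornea libraries were all far above the rest, the marrow libraries all above the microglia, and the microglial libraries of retina and brain overlapped. Mean levels were 20200.0 ± 7636 CPM (SD, n = 4) in cornea, 131 ± 16.7 in marrow, 39.9 ± 16.9 in retina and 35.1 ± 5.70 in brain. Hmox1 was higher in cornea than in retina by 8.98 on the log2 scale (SE 0.38, 505-fold, adjusted p = 3.3e-12), than in brain by 9.17 (SE 0.39, adjusted p = 2.52e-12) and than in marrow by 7.27 (SE 0.36, 154-fold, adjusted p = 1.7e-11). Marrow monocytes had more Hmox1 than retinal microglia (3.28-fold, adjusted p = 5.81e-05) and brain microglia (3.74-fold, adjusted p = 2.08e-05). Retina and brain were not told apart (log2 difference 0.19, SE 0.28, adjusted p = 0.746), and the sign turned without retina library 3, to -0.12.

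Beside this difference, the 12 immediate-early and dissociation genes (such as Fos, Jun, Egr1 and Hspa1a) summed to 20891 to 31649 CPM in cornea, 957 to 2128 in retina, 872 to 1214 in brain and 387 to 1193 in marrow. All 12 were above 10 CPM in cornea, against 7 to 9 in the other populations. The part of dissociation in the level of Hmox1 was not tested. Erythroid transcripts summed to 0.597 to 1.99 CPM in cornea, with Hba-a2, Alas2, Slc4a1 and Klf1 at 0.

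The biliverdin reductases were also highest in cornea, by far smaller factors. Blvrb, which also reduces flavins, had 168, 159, 173 and 133 CPM in cornea, against 22.4 to 37.2 in marrow, 16.3 to 33.4 in retina and 15.5 to 27.1 in brain. Its cornea level was 7.15-fold that of retina (log2 2.84, SE 0.24, adjusted p = 1.42e-08), 7.33-fold that of brain (adjusted p = 1.25e-08) and 5.45-fold that of marrow (adjusted p = 7.99e-08). The other 3 populations overlapped and none of their pairs was called for Blvrb. Blvra, the main reductase of adult tissue, had 83.1, 74.8, 81.5 and 115 CPM in cornea, 62.5 to 69.8 in marrow, 45.8 to 56.0 in brain and 29.6 to 50.5 in retina. It was 2.06-fold higher in cornea than in retina (adjusted p = 3.72e-05) and 1.78-fold higher than in brain (adjusted p = 0.000332), and with total counts in place of TMM neither was called (log2 0.26 and 0.16). Against marrow the cornea call was marginal (log2 0.41, SE 0.17, adjusted p = 0.0421), was lost without cornea library 1 or 4 or any 1 of the marrow libraries (0.24 to 0.43), and turned to -0.27 with total counts. Blvra was lower in retina than in marrow (log2 -0.64, adjusted p = 0.00349, and -0.48 and not called with lane as a term) and lower in brain than in marrow (log2 -0.43, adjusted p = 0.0386). The latter call was lost without brain library 1, 3 or 4 or marrow library 1, 2 or 4 (-0.43 to -0.39). Per kilobase of gene length, Blvrb counts were 3.21 ± 0.806 times those of Blvra in cornea and 0.900 ± 0.257 times in retina, 0.756 ± 0.198 in brain and 0.751 ± 0.152 in marrow. Cornea library 4, with 2.01, was the lowest of the cornea and still above every library of the rest.

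Fth1 ranked 1 among all gene entries by mean CPM in cornea macrophages, although Hmox1 exceeded it in cornea library 3. Its level there was 32486, 29833, 29786 and 22868 CPM, 1.58% to 2.28% of all counts. It was 2008, 1949, 2975 and 1722 CPM in retinal microglia, 946, 929, 1046 and 999 CPM in brain microglia, and 1069, 982, 713 and 647 CPM in marrow monocytes. Cornea lay above retina and retina above brain with no overlap, while brain and marrow overlapped. The step from cornea to retina was 13.3-fold (log2 3.73, SE 0.20, adjusted p = 7.1e-11), and the step from retina to brain 2.21-fold (log2 1.14, SE 0.19, adjusted p = 0.000647). Brain and marrow were not told apart (log2 0.20, adjusted p = 0.373). All retina libraries ran on sequencer lane 2 and all brain libraries on lane 3, and with lane as a term in the fit the retina to brain difference of Fth1 was 0.70 and no longer called (adjusted p = 0.151).

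Ftl1 followed another order, with marrow monocytes second. Levels were 3745, 3688, 3079 and 2685 CPM in cornea, 482, 539, 288 and 216 in marrow, 211, 199, 291 and 195 in retina, and 136, 149, 119.9 and 141 in brain. Ftl1 was 14.7-fold higher in cornea than in retina (log2 3.88, SE 0.26, adjusted p = 8.31e-10), 24.2-fold higher than in brain (adjusted p = 1.32e-10) and 8.65-fold higher than in marrow (adjusted p = 9.03e-09). Retina exceeded brain in every library, but the difference of 0.72 missed the threshold (adjusted p = 0.0595) and passed it with DESeq2 (0.70, adjusted p = 0.0214). The near-identical entry Ftl2 held 6.57% to 26.6% of the summed Ftl1 and Ftl2 counts, so the share of reads that belongs to Ftl1 is uncertain.

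**Figure D2:**
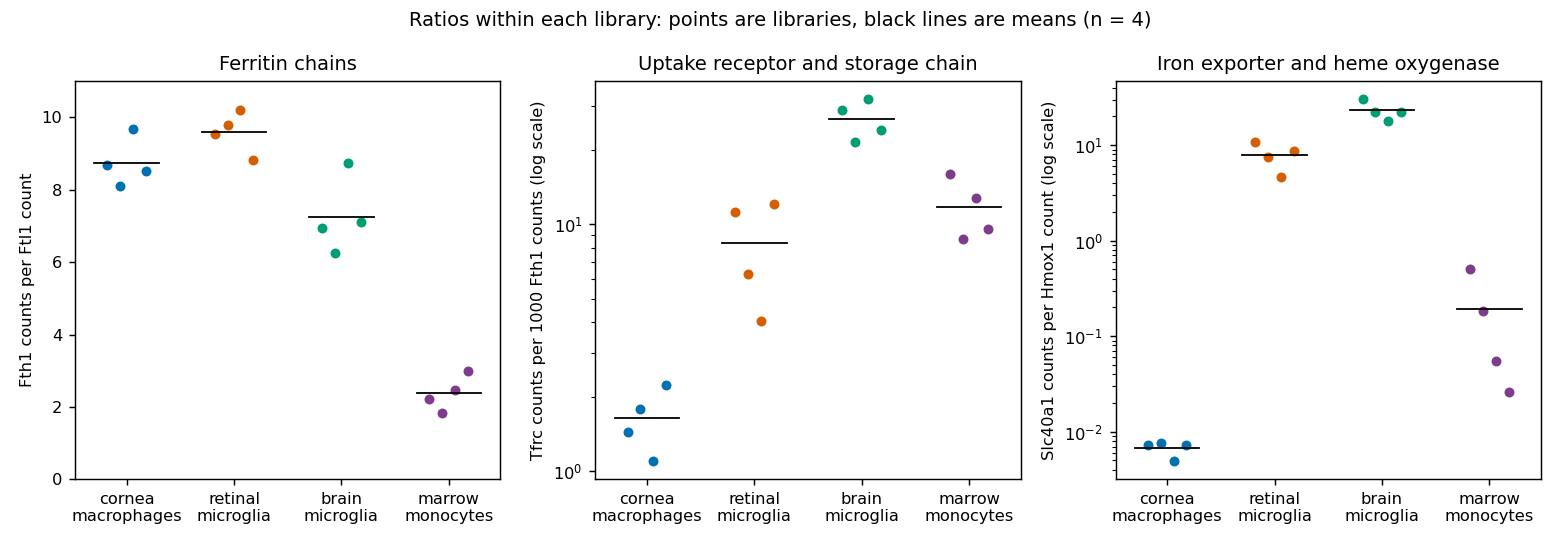
Ratios of counts of 2 genes within each library by population: Fth1 to Ftl1, Tfrc per 1000 Fth1 (log axis) and Slc40a1 to Hmox1 (log axis); points are libraries and black lines are means (n = 4). The marrow libraries have 1.82 to 3.00 Fth1 counts per Ftl1 count, below the other 12, and the brain libraries have the most Tfrc per Fth1.

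The make-up of the ferritin messages differed in marrow monocytes. There were 2.22, 1.82, 2.48 and 3.00 Fth1 counts per Ftl1 count in marrow, against 8.68, 8.09, 9.67 and 8.52 in cornea, 9.54, 9.78, 10.2 and 8.83 in retina, and 6.94, 6.24, 8.72 and 7.11 in brain. The ratio does not depend on library scaling, and per kilobase it becomes 13.5 ± 1.04 in cornea, 14.8 ± 0.893 in retina, 11.2 ± 1.62 in brain and 3.68 ± 0.765 in marrow. Marrow was below each other population, by 1.62 to 2.03 on the log2 scale (two-sided exact permutation test, p = 0.0286 each, the smallest that 4 against 4 libraries allow, and 0.0381 after Benjamini-Hochberg adjustment over 12 ratio tests). Retina exceeded brain by 0.41 (same exact test, adjusted p = 0.0381). Cornea was not told apart from retina (exact permutation test, adjusted p = 0.103) or brain (adjusted p = 0.125), and its ferritin messages took 2.21% of counts, against 0.284% in retina, 0.123% in brain and 0.136% in marrow. With Ftl2 added to Ftl1, the marrow ratio was 1.92 ± 0.240 and the others 6.40 ± 0.757 to 8.62 ± 0.462.

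Ncoa4, the receptor that hands ferritin to the lysosome, was highest in brain microglia. Brain microglia had 37.0, 34.3, 38.5 and 31.6 CPM, all above the 26.6, 21.1, 21.0 and 20.5 of retina, the 18.4, 18.8, 22.4 and 23.2 of marrow and the 21.2, 18.7, 19.8 and 15.7 of cornea. Brain was 1.88-fold above cornea (cornea minus brain, log2 -0.91, SE 0.16, adjusted p = 6.83e-05), 1.59-fold above retina (adjusted p = 0.00954) and 1.71-fold above marrow (adjusted p = 0.00041). Cornea, retina and marrow were not told apart after TMM scaling (log2 differences of at most 0.25), while total counts put cornea below retina (log2 -1.04, adjusted p = 1.72e-05) and below marrow (log2 -0.81, adjusted p = 0.000219). With lane as a term, the retina to brain difference was -0.72 and not called (adjusted p = 0.143).

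The ferroportin message had its highest mean in brain microglia and its lowest in marrow monocytes. Slc40a1 was at 859.9, 926, 657 and 746 CPM in brain microglia, 249, 298, 290.1 and 289.6 in retinal microglia, 88.6, 167, 147 and 119 in cornea macrophages, and 71.4, 19.4, 7.31 and 3.69 in marrow monocytes. No neighbours in this order overlapped. Brain was 6.12-fold above cornea (cornea minus brain, log2 -2.61, SE 0.57, adjusted p = 0.000711) and 30.8-fold above marrow (log2 4.94, adjusted p = 4.37e-06). Retina exceeded marrow 10.9-fold (adjusted p = 0.000108), and cornea exceeded marrow 5.03-fold (adjusted p = 0.00197). The differences of cornea minus retina (log2 -1.11, SE 0.55, adjusted p = 0.0839) and of retina minus brain (log2 -1.50, SE 0.55, adjusted p = 0.0977) missed the threshold in the fit over all 16 libraries. Fitted on the 8 libraries of each pair alone, the same differences were -1.13 (adjusted p = 0.000514) and -1.49 (adjusted p = 5.6e-05), and limma-voom called both (adjusted p = 0.00751 and 0.00389). Total counts gave -1.91 for cornea minus retina (adjusted p = 0.00537), and lane as a term gave -2.96 for retina minus brain (adjusted p = 0.0171). There were 23.1 ± 5.13 Slc40a1 counts per Hmox1 count in brain, 7.87 ± 2.56 in retina, 0.191 ± 0.218 in marrow and 0.00672 ± 0.00122 in cornea.

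**Figure D3:**
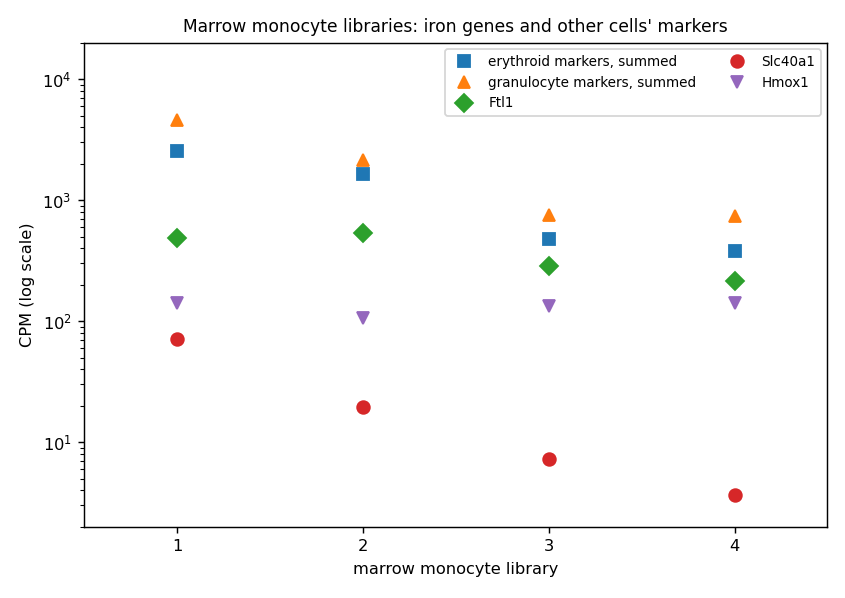
CPM (log scale) in the 4 marrow monocyte libraries of Slc40a1, Ftl1 and Hmox1 and of the summed erythroid and granulocyte markers. Slc40a1 is 71.4 CPM in library 1, which has 2523 CPM of erythroid transcripts, and 3.69 CPM in library 4, which has 377, while Hmox1 stays between 107 and 142.

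The marrow libraries were far from each other for Slc40a1, by a factor that no other population showed. The library with most Slc40a1 also had the most erythroid transcripts, whose sums were 2523, 1648, 477 and 377 CPM, and the most granulocyte transcripts, with 4589.8, 2136, 760.1 and 745 CPM in the same order. Of the 9 erythroid markers found, 6 were above 10 CPM in marrow and none was at 0. The immediate-early and dissociation genes fell in the same library order, with sums of 1193, 797, 457 and 387 CPM. Library 1 was also the only marrow library on sequencer lane 2 and had the most counts, 20705066 against 8910707 to 13100696. Libraries 1 and 2 are titled BM, and libraries 3 and 4 are titled BM-Mo. The part of these transcripts, of lane, of depth or of title group in the Slc40a1 and Ftl1 levels was not tested. Without the 2 libraries above 1000 CPM of erythroid transcripts, an alternative chosen after seeing the data, Slc40a1 was lower in marrow than in cornea by 4.57, than in retina by 5.69 and than in brain by 7.19 on the log2 scale. Leaving out library 1 alone gave 3.70, 4.81 and 6.31. The same libraries touched Ftl1, whose retina minus marrow difference of -0.77 (adjusted p = 0.00914) became -0.18 (adjusted p = 0.482) without the erythroid-rich pair. The excess of Fth1 in brain over marrow, 0.20 with all libraries, was then called (0.52, adjusted p = 0.0456).

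The NRAMP transporters were both highest in cornea, with steps of different size. Slc11a1 encodes the transporter of the phagosome membrane, and whether these cells hold a working protein was not measured. It had 1089, 919, 1000.1 and 715 CPM in cornea, 449, 426, 556 and 374 in retina, 303, 288, 361 and 367 in brain, and 201, 185, 176 and 174 in marrow, and no neighbours in this order overlapped. Cornea was 2.06-fold above retina (log2 1.04, SE 0.15, adjusted p = 9.22e-06, and 0.26 and not called with total counts), 2.82-fold above brain (adjusted p = 1.35e-07) and 5.06-fold above marrow (adjusted p = 6.75e-10). Retina and brain differed by 0.45 (adjusted p = 0.0588, and 0.0252 with DESeq2), and brain was 1.79-fold above marrow (adjusted p = 0.000113).

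Slc11a2, the divalent metal transporter of endosomes, had 891, 1168, 849 and 1355 CPM in cornea. It had 55.5, 51.0, 49.6 and 64.8 in retina, 41.7, 41.6, 52.0 and 45.8 in brain, and 14.9, 17.7, 20.3 and 16.5 in marrow. Cornea stood alone at the top, microglia of both tissues overlapped in the middle, and marrow was below all others. The cornea excess was 19.3-fold over retina (log2 4.27, SE 0.18, adjusted p = 2.37e-12), 23.5-fold over brain (adjusted p = 1.11e-12) and 61.6-fold over marrow (log2 5.94, SE 0.19, adjusted p = 1.51e-13). Retina was 3.19-fold and brain 2.61-fold above marrow (adjusted p = 1.44e-07 and 1.25e-06). Per kilobase, Slc11a1 exceeded Slc11a2 by 1.59 ± 0.568 times in cornea, with library 4 below 1 at 0.905, and by 14.3 ± 3.83 times in retina, 12.5 ± 0.874 in brain and 18.5 ± 3.45 in marrow.

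Tfrc was a low transcript in every population. It had 46.9, 53.3, 32.7 and 51.1 CPM in cornea, 27.4, 19.9, 33.5 and 24.0 in brain, 22.5, 12.3, 12.1 and 20.8 in retina, and 17.0, 8.57, 9.13 and 6.18 in marrow, and each neighbouring pair in this order overlapped. Cornea was 2.72-fold above retina (log2 1.44, SE 0.30, adjusted p = 0.000393, and 0.64 and not called with total counts) and 4.46-fold above marrow (adjusted p = 9.54e-06). The call of cornea over brain (log2 0.81, SE 0.29, adjusted p = 0.0216) was lost without cornea library 2 or 4 or brain library 2 or 4 (log2 0.70 to 0.77), with lane as a term (0.52) and with total counts (0.14). Brain was 2.54-fold above marrow (adjusted p = 0.00103), and retina against marrow was marginal (log2 0.71, adjusted p = 0.0481), being lost without retina library 1 or 4 or marrow library 2, 3 or 4 (log2 0.52 to 0.65), with limma-voom (0.66) and with lane as a term (0.45). Without marrow library 1 the same difference was 1.08 (adjusted p = 0.00416), and without the 2 marrow libraries richest in erythroid transcripts it was 1.14 (adjusted p = 0.0124). Tfrc and Fth1 carry the iron-responsive element in opposite UTRs, and their ratio does not depend on scaling. The element of Fth1 acts on translation, as stated above, so the ratio of messages is not read as a measure of iron. There were 1.64 ± 0.485 Tfrc counts per 1000 Fth1 counts in cornea, 8.42 ± 3.86 in retina, 11.7 ± 3.28 in marrow and 26.6 ± 4.78 in brain. All pairs differed (exact permutation test, adjusted p = 0.0381 each) other than retina and marrow (adjusted p = 0.229).

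Genes are compared here per kilobase of the deposited gene length. That need not be the length of the transcript expressed, so the order of genes with close values is uncertain. On this scale, cornea macrophages had 33191 ± 4752 CPM per kilobase of Fth1, 9348 ± 3534 of Hmox1 and 2462 ± 379 of Ftl1. They had 251 ± 43.1 of Slc11a1, 168 ± 37.6 of Slc11a2, 112 ± 12.5 of Blvrb, 36.2 ± 7.30 of Blvra, 14.5 ± 3.79 of Slc40a1, 7.44 ± 1.50 of Tfrc and 4.23 ± 0.527 of Ncoa4. Among the 10 genes Fth1 led in every population, with 2499 ± 641 CPM per kilobase in retina, 1132 ± 61.5 in brain and 985 ± 236 in marrow. The place of Hmox1 and Slc40a1 turned over: in brain Slc40a1 had 88.6 ± 13.3 and Hmox1 16.2 ± 2.64 CPM per kilobase.

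**Figure D4:**
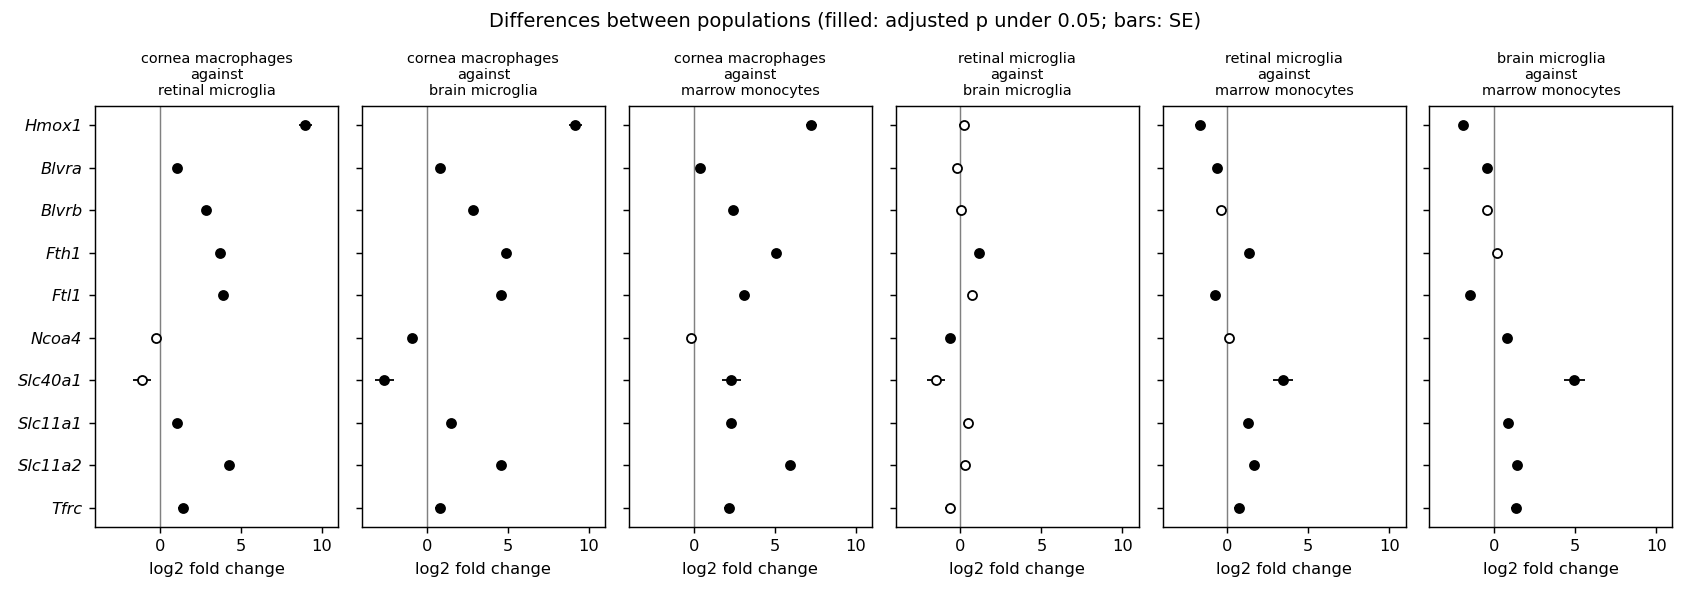
Log2 fold change (first minus second population) of the 10 genes in the 6 comparisons from edgeR; bars are SE and filled points have an adjusted p under 0.05. In the 3 cornea panels the points of Hmox1, Slc11a2 and the ferritin chains lie far to the right, while the retina to brain panel has only 2 filled points, Fth1 and Ncoa4.

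Counted together, 8 of the 10 genes were higher and 0 lower in cornea than in retina, where 66.0% of all tested genes were called, 30.9% of them higher in cornea and 35.1% lower as shares of all tested genes. Libraries of cornea and retina did not overlap for 9 of the 10 (59.1% of all genes). Against brain, 8 were higher and 2, Slc40a1 and Ncoa4, lower (66.8% of all genes called, 33.8% higher and 33.1% lower), and 9 did not overlap (62.4%). Against marrow, 9 were higher and 0 lower (63.3%, of which 32.2% higher and 31.1% lower), and 9 did not overlap (57.9%). The median log2 fold change of the set was 2.14, 2.19 and 2.39 in these comparisons, against -0.12, -0.00 and 0 over all genes. These comparisons share the cornea libraries. With total counts the splits were 5 higher and 2 lower against retina, 6 and 2 against brain, and 8 and 1 against marrow. Of all 15754 tested genes, that setting called 2922 higher and 8489 lower in cornea than in retina. Against brain it called 3566 higher and 7609 lower, and against marrow 3503 and 7532. Between retina and brain 1 gene was higher and 1 lower, where 10.5% of all genes were called (6.95% higher and 3.6% lower), and 5 did not overlap (18.1% of all genes). Retina had 5 genes higher and 3 lower than marrow (59.3% of all genes called, 55.2% without overlap against 6 of the 10), and brain also had 5 higher and 3 lower than marrow (56.0%, with 56.7% without overlap against 8 of the 10).

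Other genes of iron and heme handling were listed in 4 groups of 60 genes in all, of which 51 could be tested. Cornea had 16 of them higher and 21 lower than retina, 17 and 23 against brain, and 18 and 20 against marrow. These are 72.5%, 78.4% and 74.5% of the 51, against 66.0%, 66.8% and 63.3% of all genes. With total counts the splits were 12 and 33, 13 and 28, and 15 and 32. Of all 15754 genes, that setting called 2922 higher and 8489 lower against retina, 3566 and 7609 against brain, and 3503 and 7532 against marrow. Among 12 tested genes of iron uptake and transport, 8 were higher and 1 lower in cornea than in retina, 9 and 3 against brain, and 10 and 0 against marrow. Total counts changed these to 4 and 4, 5 and 3, and 7 and 2. The median log2 fold change of this group was 0.82, 1.09 and 1.72, while 30.9%, 33.8% and 32.2% of all genes were called higher in cornea.

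A few of these genes were highest in cornea macrophages, and Steap4, Cd163, Spic and Nr1h3 were at a few CPM or less elsewhere. Steap4, a metalloreductase, had 92.8 to 105 CPM in cornea and 0 counts in all libraries of retina and brain, so it was at least 2496-fold higher than in retina and at least 1479-fold higher than in brain with the floor set at 3 counts summed over the 4 libraries. Cd163, the scavenger receptor for haemoglobin bound to haptoglobin, had 167 ± 45.9 CPM in cornea, 3.94 ± 1.72 in marrow, 1.16 ± 1.62 in retina and 0 in brain (at least 2594-fold higher in cornea than in brain). Spic, the heme-induced transcription factor of red pulp macrophages, had 343 ± 18.5 CPM in cornea, 1.83 ± 1.26 in marrow, 0.229 ± 0.286 in retina and 1 count in all 4 brain libraries, a ratio of 15680.3 (95% counting interval 2814 to 619374). Nr1h3, the liver X receptor alpha, had 52.6 ± 15.8 CPM in cornea and at most 1.07 ± 0.482 elsewhere. The zinc and iron carrier Slc39a14 had 426 ± 65.4 CPM in cornea, 36.2 ± 11.0 in retina, 32.1 ± 4.34 in brain and 1.86 ± 1.25 in marrow. Ceruloplasmin (Cp), the ferroxidase that works with ferroportin, had 54.6 ± 11.2 CPM in cornea and 12.4 ± 6.11 in retina, 2.93 ± 1.89 in brain and 1.30 ± 1.26 in marrow. All of these were called higher in cornea than in each other population (edgeR, Benjamini-Hochberg adjusted p at most 0.00294, that of Cp against retina).

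**Figure D5:**
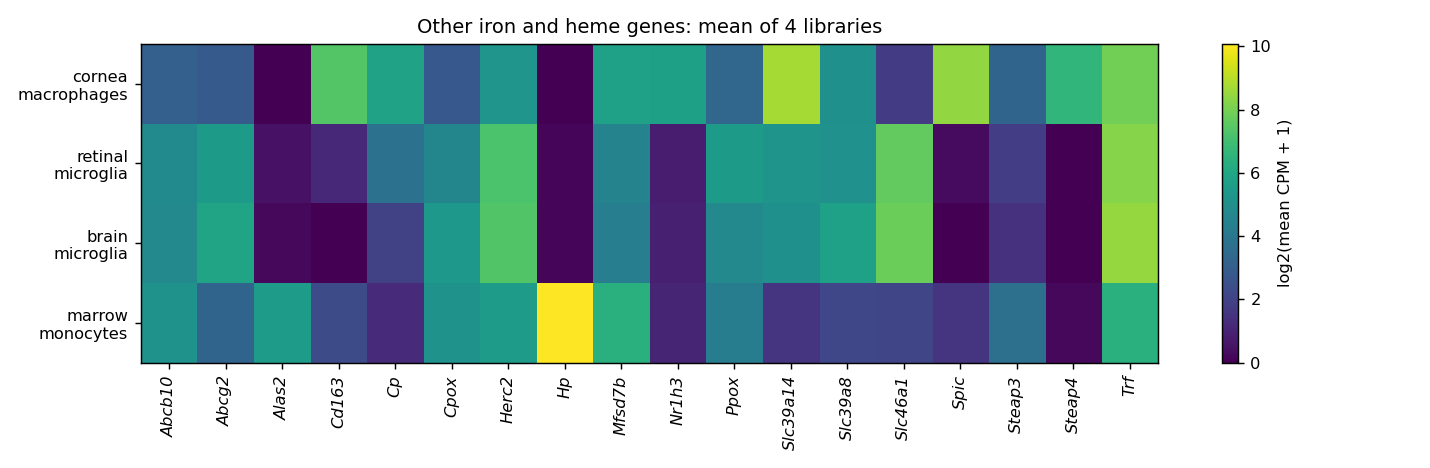
Mean level of 4 libraries, as log2(mean CPM + 1), of other iron and heme genes with large differences, by population. Spic, Cd163, Steap4, Nr1h3 and Slc39a14 are brightest in cornea, Slc46a1 and Abcg2 in both microglia, and Hp and Alas2 in marrow.

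Of 19 tested genes of heme transport, synthesis and breakdown, 3 were higher and 14 lower than in retina, 3 and 13 against brain and 3 and 13 against marrow, and total counts gave 3 and 14, 3 and 13, and 3 and 15. With total counts, 8489, 7609 and 7532 of all 15754 genes were called lower in cornea, and after TMM scaling 35.1%, 33.1% and 31.1%. The median log2 fold change of the heme group was -1.36, -1.40 and -0.92, against -0.12, -0.00 and 0 over all genes. Alas1, which catalyses the first and rate-limiting step of heme synthesis outside red cells, was one of the exceptions, with 533 ± 52.5 CPM in cornea and 105 ± 18.2, 117 ± 4.27 and 119.8 ± 16.2 in retina, brain and marrow (at least 4.44-fold higher in cornea, adjusted p at most 5.76e-10). Among enzymes of the later steps, 6 (Alad, Uros, Urod, Cpox, Ppox and Fech), singled out after their values were seen, were each called lower in cornea than in each other population, with medians of -1.55, -1.31 and -0.95. Under the other settings 5 or 6 of them were called lower against retina and marrow and 6 against brain, and none was called higher. Hmox2, the constitutive heme oxygenase, was also lower in cornea, with 45.0 ± 4.58 CPM against 105 ± 23.9, 124 ± 6.18 and 106 ± 5.95, where Hmox1 was highest. Slc48a1, which moves heme out of the phagolysosome, was higher in cornea at 401 ± 33.3 CPM, against 65.6 ± 22.5, 55.9 ± 8.80 and 97.6 ± 9.18 (adjusted p at most 6.85e-08). Alad, Uros, Urod, Fech, Alas1, Hmox2 and Slc48a1 were named after their values were seen.

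Other genes were highest in microglia of both tissues. Slc46a1, the folate transporter first described as a heme carrier, had 198 ± 14.7 CPM in retina and 227 ± 35.7 in brain, against 2.33 ± 1.72 in cornea and 3.27 ± 0.252 in marrow. Abcg2, an exporter that also carries porphyrins, had 43.9 ± 8.82 and 58.4 ± 4.53 CPM in microglia, against 6.17 ± 2.57 and 8.38 ± 3.85. Herc2, a ubiquitin ligase that acts on NCOA4, had 148 ± 40.3 and 162 ± 24.3 CPM in microglia, 37.4 ± 19.0 in cornea and 46.1 ± 3.89 in marrow. Marrow monocytes held Hp (haptoglobin) at 1079.9 ± 93.3 CPM, against at most 0.129 ± 0.0351 in the other populations, and Alas2, the erythroid form of the first enzyme, at 46.2 ± 31.3 CPM. Alas2 is itself one of the erythroid markers, and cornea had 0 counts of it (at least 849-fold lower). Mfsd7b (FLVCR1, a heme exporter) was highest in marrow, at 82.5 ± 17.5 CPM. The metal importer Slc39a8 and transferrin (Trf) were lowest there, with means of 3.48 and 84.1 CPM against at least 32.6 and 241 elsewhere.

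Among 10 tested regulators, cornea had 4 higher in each comparison (Spic, Nr1h3, Bach1 and Nfe2l2), and 2 lower than in retina, 3 than in brain and 3 than in marrow. That is 60%, 70% and 70% of the group, near the 66.0%, 66.8% and 63.3% of all genes called, and its median log2 fold changes were -0.10, -0.08 and -0.05. Nfe2l2 encodes NRF2, an activator of Hmox1 and of the ferritin genes, and Bach1 a heme-sensing repressor of the same genes (both named after their values were seen). Nfe2l2 had 1257 ± 175 CPM in cornea, 283 ± 20.2 in retina, 336 ± 23.2 in brain and 198 ± 26.2 in marrow, and Bach1 had means of 125, 34.6, 34.7 and 53.7 CPM in the same order. The messages of activator and repressor were both highest in cornea (edgeR adjusted p at most 1.02e-05 in each comparison). Of 10 iron-sulfur cluster genes, 1 was higher and 4 lower in cornea than in each other population, or 50% called, a smaller share than that of all genes. Between retina and brain, 2 of the 51 genes were higher and 1 lower, a share of 5.88% against 10.5% of all genes. Retina had 15 higher and 15 lower than marrow (58.8% called, against 59.3% of all genes), and brain 12 and 16 (54.9% against 56.0%), shares near the background.

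Genes with the most similar pattern to 4 of the members were taken as the 3 with the highest Pearson r of log2 CPM across the 16 libraries, among 9324 genes, as a description of libraries that share their populations and depth. For Hmox1 they were Gm15974, Gm21399 and Prdx1, a peroxiredoxin, each with r = 0.995. For Slc40a1 they were Ets1 (0.960), Abcb4 (0.958) and Slco2b1 (0.954). For Slc11a1 they were Got1 (0.984), Zmynd15 (0.974) and Ier5 (0.972), the last an immediate-early gene. For Tfrc they were Mpp5 (0.942), Manf (0.935) and Zbtb43 (0.934). Prdx1 had mean levels of 4587 CPM in cornea, 232 in marrow, 122 in retina and 92.7 in brain, the same order of populations as Hmox1. In that order Gm15974 had 2045, 114, 56.1 and 42.8 CPM, and Gm21399 had 2028, 103, 50.6 and 39.3 CPM. The treatment of reads with several matches is not stated, so whether these 3 entries are separate signals is uncertain. Ets1 had 263 CPM in brain, 184 in retina, 28.0 in cornea and 4.94 in marrow, the order of Slc40a1.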

How the data were processed

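The deposited table holds raw counts per gene, whole numbers without normalization, for 16 libraries, and gene lengths in bases (unit other), per the file headers. The submitters' processing notes name CASAVA 1.8.2, Subread, featureCounts, limma and GRCm38.p4, without order. The strand setting and the treatment of reads with several matches are not stated in the labels, and the extraction text describes another tissue and mouse line, so the kit is uncertain. Symbols of 27 entries had been turned into dates (at most 0.223% of a library's counts), and 16739 entries were at 0 in all libraries.

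Genes were filtered with filterByExpr (minimum count 10), scaled with TMM and fitted by population in edgeR 4.0.16 under R 4.3.3, with the quasi-likelihood test and Benjamini-Hochberg adjustment over 15754 genes. The SE of a log2 fold change was taken as its size over the square root of the F statistic. The script was tested on simulated data. Ratios were compared with exact permutation tests in scipy 1.17.1. A floor of 3 counts over a group and 95% intervals cover counting error only. Alternatives used DESeq2 1.42.0, limma 3.58.1, other scalings, lane terms and left-out libraries.

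The members, the lists and the tests were chosen with earlier results of these data known. All 10 members were named in every comparison. From the lists, up to 5 genes per direction and comparison were named, with an adjusted p under 0.05, at least 2-fold, at least 10 CPM in the higher population and no overlap of libraries, by size. Some genes of the lists are counted but not reported here by name. Sequences came from GENCODE vM21 transcripts and RefSeq promoter windows, both on GRCm38. Library copies were checked: no pair of libraries of a population agreed within sampling noise.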

Additional observations from a re-analysis of the deposited data

Results flagged for a closer look

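In each of 40 groups of 4 libraries (10 genes in 4 populations), the highest and lowest library was set against Dixon's 95% critical value, which chance passes in about 1 in 20 groups. Of the 40 groups, 2 passed it, which is about the share that chance gives. Retina library 3 stood apart for Ftl1, with 291.4 CPM against 195 to 211 in the other 3. The same library was also the highest of the 4 for Hmox1 (63.1 CPM), Fth1 (2975 CPM), Slc11a1 (556 CPM) and Blvrb (33.4 CPM) without passing that value, and it had the fewest photoreceptor transcripts, 775 CPM against 2177 to 7416. Retina library 1 stood apart for Ncoa4, with 26.59 CPM against 20.5 to 21.1. The titles of both libraries lack the letter that most titles carry, and the part of any of these in the levels was not tested.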

How the results depend on the processing

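The 6 counts of called members stayed within 1.5 times under every alternative other than those of retina against brain, where 2 calls became 4 with total counts, 4 with DESeq2, 4 with only the 2 populations in the fit and 1 with lane as a term, which was Slc40a1 and neither of the 2. Of all 15754 genes, 1662 were called there, 1643 with total counts, 2315 with DESeq2 and 463 with lane as a term. With only the 2 populations in the fit, 1551 of 13754 were called. The 3 calls of the 51 pathway genes in that comparison became 6 with DESeq2, 5 with limma-voom and 1 with lane as a term, and ranged from 1 to 5 when a library was left out (1 without brain library 1, 3 or 4, and 5 without brain library 2). Calls over all genes were 1862 with limma-voom. They ranged from 1140 to 1657 when a library was left out, with 16174 to 16458 genes tested. Lane and population are nearly the same split between retina and brain. Lane could be held constant only between cornea and retina (9 members called, and 10144 of 19132 genes) and between brain and marrow (8, and 9067 of 16207 genes). Signs turned for Blvra in cornea against marrow with total counts (-0.27 from 0.41), and in retina against brain for Blvra (0.0077), Blvrb (-0.17) and Hmox1 (-0.079) with lane as a term, for Blvrb without the 3 libraries whose titles lack a letter (-0.16), without retina library 3 (-0.23) and without brain library 1 (-0.096), and for Hmox1 without retina library 3 (-0.12). Leaving out 1 library at a time, these retina to brain values ranged from -0.23 to 0.16 for Blvrb and from -0.12 to 0.37 for Hmox1. The retina to marrow value of Ncoa4 turned to -0.041 without the erythroid-rich marrow libraries. Only that of Blvra in cornea against marrow was called with all libraries, and the cause was not tested. Blvra in brain against marrow (-0.43, adjusted p = 0.0386) was lost in 12 of its alternatives. Between brain and marrow, libraries 3 and 4 of each share the title ranges 4-6 and 7-9, but their deviations did not go together (correlations -0.0096 and 0.033), so a replicate block on them rests on a shared number only. With the replicate block 7 members and 30 pathway genes were called, against 8 and 28, and Blvra was -0.43 (adjusted p = 0.0539). Of all 15754 genes, 8575 were called with the block and 8817 without it. Depth limits the marrow values of Slc40a1 and Tfrc most, with as few as 52 and 86 counts in a library.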
